A study of Mus musculus with 12 samples.

Results

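The tubulin isotypes were examined in mouse liver 6 h after treatment with 3 long-acting insulins. The genes were Tubb2a, Tubb2b, Tubb4b, Tubb5 and Tubb6, which encode beta-tubulins, and Tuba1a, Tuba1b, Tuba1c, Tuba4a and Tuba8, which encode alpha-tubulins. A gene was read from a probe set, the group of probes that measures a transcript cluster on the array, when the annotation gave that probe set its symbol alone. Of the 10 genes, 7 had such a probe set, of 19937 symbols that did on the whole array. Where a gene had several, the probe set was to be chosen by its mean value over the 12 arrays, but each of the 7 had only 1. Tubb4b, Tuba1b and Tuba1c could be read only from probe sets that carry several symbols. The family was picked with earlier results of these arrays known, the high values of Tubb2a among them, so the tests below describe these arrays and are no independent evidence that the isotypes respond.

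Livers came from 4 groups of wild type C57BL/6 mice with 3 arrays each. The mice were given Albulin, a fusion of insulin to albumin, Insulin-Apo, apolipoprotein A-I fused to insulin, or insulin glargine, a long-acting insulin analogue, each at 55 nmol/kg under the skin, or saline. The labels give an age of 6 weeks, and the methods give female C57BL/6J mice of an older age at purchase. All groups shared strain, route and time. Neither source says that every array came from its own mouse, and the p-values therefore cover the variation among arrays alone.

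Microtubules are hollow filaments of alpha- and beta-tubulin pairs. Each tubulin is made from several genes, and the products, called isotypes, differ mostly at their carboxyl ends, where enzymes add glutamate, remove tyrosine or otherwise mark the filament. Cells also hold the level of tubulin mRNA to the pool of free tubulin, since excess free tubulin speeds the decay of its own mRNA during translation. In hepatocytes, microtubules carry secretory vesicles, among them those with very low density lipoprotein, and position the organelles.

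The values are log2 expression values, so a difference of 1 is a doubling, and array medians were 7.70 to 7.77. Arrays correlated with the rest of their group, on average, at 0.995 to 0.997 in Albulin, Insulin-Apo and saline livers, and 0.990 to 0.993 in insulin glargine livers, where replicate 3 was lowest. The array methods of the study do not describe the insulin glargine arrays, so treatment and a separate handling of these arrays cannot be told apart. For the tubulin probe sets, the differences of insulin glargine from saline are also given without replicate 3. The hepatocyte markers Alb, Ttr, Apoa1, Cps1, Hnf4a and Cyp2e1 were between 13.4 and 14.9 in every array, above at least 99.2% of probe sets. In bulk liver, fewer cells of a type and less RNA per cell cannot be told apart.

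A member was called when the log odds of a difference in limma, the B statistic, was over 0. Tubb2a was the only isotype called higher than saline after all 3 insulins, and after insulin glargine Tubb6 and Tuba8 were called higher too. Without a call each time, the means of all members but Tuba8 were above saline after every insulin, and so were all Tubb6 arrays. After Albulin, 1 of 7 members was called against saline, Tubb2a, where 2.41% of all probe sets were called. After Insulin-Apo it was again 1 of 7, Tubb2a, where 2.14% were called. After insulin glargine, 3 of 7 were called, all higher, where 4.84% of all probe sets were called in either direction and 2.24% were called higher. Had the threshold been an adjusted p of 0.05, the count after insulin glargine would be 5 of 7, with Tuba1a and Tuba4a added, where 10.9% of all probe sets passed. All arrays of a group lay above all saline arrays for 3 of 7 members after Albulin, where this held for 11.6% of all probe sets, for 3 of 7 after Insulin-Apo, where it held for 10.4%, and for 5 of 7 after insulin glargine, where it held for 11.8%. The medians of the 7 differences from saline were 0.13 after Albulin, 0.30 after Insulin-Apo and 0.50 after insulin glargine, where the medians over all probe sets were 0.0026, -0.017 and -0.00033. These 3 comparisons share the saline arrays.

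**Figure D1:**
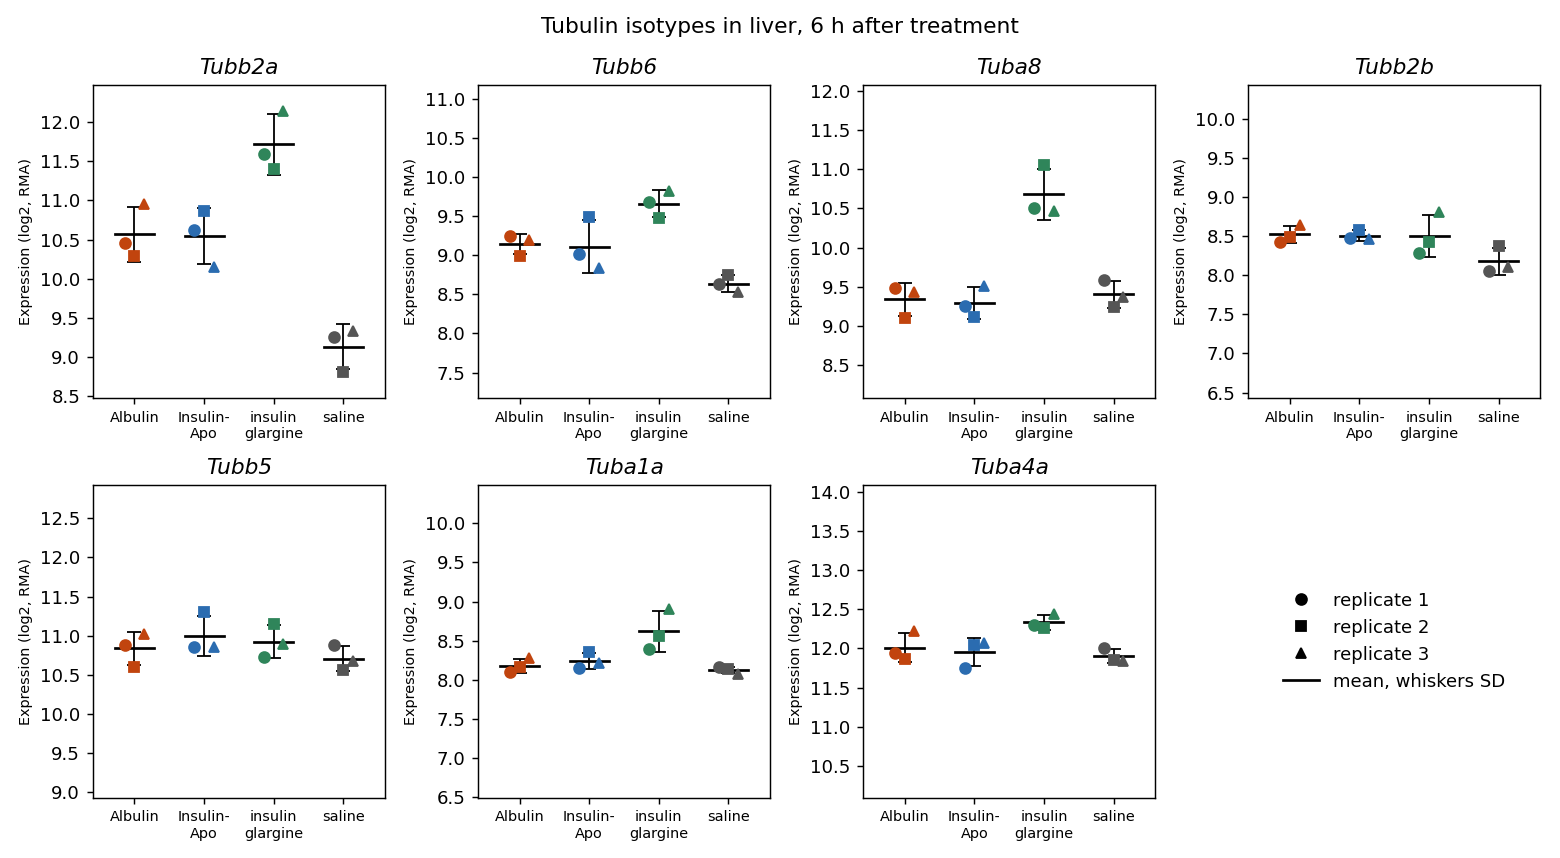
Expression of the 7 tubulin isotypes with a probe set of their own (log2, RMA) by treatment, with a point per array, the mean as a bar and whiskers of 1 SD (n = 3 arrays). The panels span the same number of log2 units, so steps can be compared between panels but levels cannot. Tubb2a lay between 10.15 and 10.96 after Albulin and Insulin-Apo, between 11.41 and 12.15 after insulin glargine and between 8.80 and 9.33 after saline.

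The 250 bases before the start of Tubb2a, Tuba8 and Tubb5 are shown because these genes stand for the 3 patterns of calls among the isotypes. In that order, they were called higher than saline after every insulin, called higher than saline after insulin glargine alone, and not called in any comparison. Capitals mark 4 short motifs searched on both strands, the GC box GGGCGG, the TATA box TATAAA, the box of letters CCAAT and the E-box CACGTG. The letters CCGCCC are a GC box read on the other strand, and no 2 marked motifs overlap.
Tubb2a, chr13:34078009-34078258, minus strand: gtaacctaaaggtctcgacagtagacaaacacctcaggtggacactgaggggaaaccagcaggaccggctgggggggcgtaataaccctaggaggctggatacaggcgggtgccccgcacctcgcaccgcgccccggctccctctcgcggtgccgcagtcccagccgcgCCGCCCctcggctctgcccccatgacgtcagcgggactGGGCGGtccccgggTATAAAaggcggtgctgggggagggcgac
Tuba8, chr6:121210484-121210733, plus strand: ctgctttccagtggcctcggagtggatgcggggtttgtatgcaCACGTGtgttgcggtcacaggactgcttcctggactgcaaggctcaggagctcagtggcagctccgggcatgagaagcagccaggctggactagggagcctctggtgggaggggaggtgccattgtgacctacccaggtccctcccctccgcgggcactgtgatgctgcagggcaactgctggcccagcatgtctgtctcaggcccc
Tubb5, chr17:35838302-35838551, minus strand: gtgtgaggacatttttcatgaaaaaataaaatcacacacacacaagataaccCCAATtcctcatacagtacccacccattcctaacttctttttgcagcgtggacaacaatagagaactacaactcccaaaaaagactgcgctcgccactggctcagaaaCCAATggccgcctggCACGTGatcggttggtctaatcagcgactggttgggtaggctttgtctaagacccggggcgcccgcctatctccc
The sequences are from RefSeq on GRCm38.p6 and are printed 5′ to 3′. Tubb2a held TATAAA from base -29 to -24 and GGGCGG at -81 and -43, counted back from -1 at the last base before the start. Tuba8 held only CACGTG, from -207 to -202, and Tubb5 held CACGTG from -75 to -70 with CCAAT at -198 and -90. Over 32851 RefSeq windows of 250 bases, TATAAA was present in 12.4%, GGGCGG in 32.7%, CCAAT in 33.8% and CACGTG in 6.02%. RefSeq windows matched 8 of the 10 members. In the windows not shown, GGGCGG was present in Tubb4b, Tuba1a, Tuba1b and Tuba4a, and CCAAT in Tubb4b, Tuba1a and Tuba1c. A match to such short letters is a description of the sequence only.

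Among the beta-tubulins, Tubb2a had the widest range over the 12 arrays. Tubb2a encodes a beta-tubulin that is known for its abundance in neurons and is also made in other tissues. Its values were 10.46, 10.28 and 10.96 in Albulin livers, 10.62, 10.86 and 10.15 in Insulin-Apo livers, and 11.59, 11.41 and 12.15 in insulin glargine livers, against 9.26, 8.80 and 9.33 in saline livers. All 9 insulin arrays were above all 3 saline arrays, the insulin glargine arrays were above all others, and the Albulin and Insulin-Apo arrays overlapped.

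In the comparison with saline, Tubb2a was 1.44 ± 0.21 log2 units higher after Albulin, a 2.71-fold higher value (SE, limma, adjusted p = 0.00413, 3 of 3 arrays higher). It rose by 1.41 ± 0.21 after Insulin-Apo, 2.66-fold (SE, limma, adjusted p = 0.00564, 3 of 3 arrays higher). After insulin glargine it rose by 2.58 ± 0.23, 5.995-fold (SE, limma, adjusted p = 5.90e-05, 3 of 3 arrays higher), and without insulin glargine replicate 3 the rise was 2.37 (adjusted p = 9.75e-05). These 3 calls were made under every alternative processing that was run, 20 for Albulin, 20 for Insulin-Apo and 22 for insulin glargine.

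Between the insulins, Tubb2a differed by 0.02 between Albulin and Insulin-Apo (95% interval -0.44 to 0.48, limma, adjusted p = 0.975). With 3 arrays per group, a difference within that interval is not excluded. The difference from insulin glargine livers was -1.15 ± 0.23 in Albulin livers (SE, limma, adjusted p = 0.00817) and -1.17 ± 0.23 in Insulin-Apo livers (SE, limma, adjusted p = 0.00663), with all arrays lower in both. Both calls were near the threshold. The call for Albulin was lost in 11 of 22 alternatives, among them those without Albulin replicate 1 or 2, Insulin-Apo replicate 1, insulin glargine replicate 1 or 3, or saline replicate 1 or 3, and that for Insulin-Apo in 7 of 22, among them those without Albulin replicate 1, Insulin-Apo replicate 1 or 3, insulin glargine replicate 1 or 3, or saline replicate 1. Over all 22 alternatives, those that kept the call included, the adjusted p was between 0.00633 and 0.0451 for Albulin. For Insulin-Apo it was between 0.00591 and 0.0339. Without insulin glargine replicate 3, the differences were -0.93 (adjusted p = 0.0216) for Albulin and -0.96 (adjusted p = 0.0181) for Insulin-Apo, neither called.

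Tubb6, a widely made beta-tubulin, had the same order of group means as Tubb2a with smaller steps. Its values were 9.24, 8.99 and 9.19 in Albulin livers, 9.01, 9.48 and 8.83 in Insulin-Apo livers, and 9.68, 9.48 and 9.82 in insulin glargine livers, against 8.64, 8.74 and 8.53 in saline livers. All 9 insulin arrays were above the saline arrays, and the highest Insulin-Apo array reached the lowest insulin glargine array. After insulin glargine, Tubb6 rose by 1.02 ± 0.15, 2.03-fold (SE, limma, adjusted p = 0.000871), and without insulin glargine replicate 3 by 0.94 (adjusted p = 0.00237). The differences from saline were 0.51 ± 0.14 after Albulin (SE, limma, adjusted p = 0.0742) and 0.47 ± 0.14 after Insulin-Apo (SE, limma, adjusted p = 0.0992), and neither was called. Without Insulin-Apo replicate 2, which stood above the other Insulin-Apo arrays, the difference after Insulin-Apo was 0.29 (adjusted p = 0.209), and that for Albulin was called at the same size (adjusted p = 0.0104). Against saline, Albulin was called in 2 of 20 alternatives and Insulin-Apo in 0 of 20. Against insulin glargine, the differences were -0.52 for Albulin (limma, adjusted p = 0.0459) and -0.55 for Insulin-Apo (limma, adjusted p = 0.0291), both with B below 0. Both were called without Insulin-Apo replicate 2, at -0.52 for Albulin (adjusted p = 0.00942) and -0.74 for Insulin-Apo (adjusted p = 0.00350). Each was called in 2 of 22 alternatives, the other being the adjusted p threshold. Over the alternatives the adjusted p reached 0.169 for Albulin and 0.130 for Insulin-Apo. With single arrays left out, the differences were -0.61 to -0.44 for Albulin and -0.74 to -0.41 for Insulin-Apo.

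Tubb2b is the close paralog of Tubb2a, and the probe sequences were not used here, so signal shared between both genes cannot be told apart from their own. Its values were 8.43, 8.49 and 8.65 in Albulin livers, 8.47, 8.58 and 8.46 in Insulin-Apo livers, and 8.29, 8.42 and 8.80 in insulin glargine livers, against 8.06, 8.38 and 8.10 in saline livers. The Albulin and Insulin-Apo arrays lay above the saline arrays, while those of insulin glargine overlapped with them. The differences from saline were 0.34 after Albulin (limma, adjusted p = 0.0680), 0.33 after Insulin-Apo (adjusted p = 0.0849) and 0.32 after insulin glargine (adjusted p = 0.136), and none was called. Without saline replicate 2, the highest saline array, the differences were 0.44 for Albulin (adjusted p = 0.0301) and 0.43 for Insulin-Apo (adjusted p = 0.0445), and both were called. In the other 19 of 20 alternatives neither was called. The differences went down to 0.28 for Albulin and 0.27 for Insulin-Apo, and the adjusted p up to 0.220 and 0.263. The difference after insulin glargine was 0.17 without its replicate 3, the highest of the 12 arrays (adjusted p = 0.343). Whether the paralogs differ in response was not tested.

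Tubb5 encodes a beta-tubulin made in most dividing and non-dividing cells. Its values were 10.88, 10.61 and 11.03 in Albulin livers, 10.85, 11.30 and 10.86 in Insulin-Apo livers, and 10.73, 11.14 and 10.90 in insulin glargine livers, against 10.88, 10.56 and 10.68 in saline livers. Every pair of groups overlapped. The differences from saline were 0.13 after Albulin (95% interval -0.18 to 0.44), 0.30 after Insulin-Apo (-0.01 to 0.60) and 0.22 after insulin glargine (-0.11 to 0.54), and none was called in limma (adjusted p between 0.307 and 0.709). The difference after Insulin-Apo was 0.15 without its replicate 2 (adjusted p = 0.651), and that after insulin glargine was 0.23 without replicate 3 (adjusted p = 0.458).

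Among the alpha-tubulins, Tuba8 was higher after insulin glargine and not called after the fusion proteins. Of the alpha-tubulins examined here, Tuba8 encodes the one most unlike the others in sequence. Its values were 9.48, 9.10 and 9.44 in Albulin livers, 9.25, 9.12 and 9.51 in Insulin-Apo livers, and 10.51, 11.06 and 10.47 in insulin glargine livers, against 9.59, 9.24 and 9.38 in saline livers. The 3 insulin glargine arrays were above all 9 others, which overlapped. Against saline, Tuba8 rose by 1.28 ± 0.16 after insulin glargine, 2.42-fold (SE, limma, adjusted p = 0.000449), and by 1.38 without insulin glargine replicate 3 (adjusted p = 0.000473). The differences from saline were -0.06 after Albulin (95% interval -0.35 to 0.22, limma, adjusted p = 0.874) and -0.11 after Insulin-Apo (-0.40 to 0.18, adjusted p = 0.740).

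The difference between the insulins was tested for Tuba8 directly. The difference from insulin glargine livers was -1.34 ± 0.16 in Albulin livers (SE, limma, adjusted p = 0.000318) and -1.385 ± 0.16 in Insulin-Apo livers (SE, limma, adjusted p = 0.000245), with 3 of 3 arrays lower in both. Each of these calls, and that of insulin glargine against saline, was made under all 22 alternatives, those without insulin glargine replicate 3 included.

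Tuba1a, the alpha-tubulin best known from developing neurons, moved less. Its values were 8.10, 8.16 and 8.27 in Albulin livers, 8.16, 8.35 and 8.22 in Insulin-Apo livers, and 8.40, 8.56 and 8.91 in insulin glargine livers, against 8.16, 8.13 and 8.08 in saline livers. The insulin glargine arrays were above the arrays of the other groups, and the 3 others overlapped. The difference of insulin glargine from saline was 0.50 ± 0.11 (SE, limma, adjusted p = 0.0120), with B just below 0. It was 0.35 without insulin glargine replicate 3 (adjusted p = 0.0158), and 0.61 and called without replicate 1 (adjusted p = 0.00428). It was -0.44 for Albulin against insulin glargine (adjusted p = 0.0254) and -0.38 for Insulin-Apo against insulin glargine (adjusted p = 0.0450). Without insulin glargine replicate 3, these were -0.30 for Albulin and -0.24 for Insulin-Apo, the latter with an adjusted p of 0.0964. For Albulin the adjusted p reached 0.113 over the alternatives.

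Tuba4a encodes an alpha-tubulin that is made without the final tyrosine of the others. Its values were 11.94, 11.87 and 12.22 in Albulin livers, 11.75, 12.04 and 12.07 in Insulin-Apo livers, and 12.30, 12.26 and 12.43 in insulin glargine livers, against 12.01, 11.85 and 11.85 in saline livers. The insulin glargine arrays lay above the others, by little over the highest Albulin array. The difference of insulin glargine from saline was 0.43 ± 0.11 (SE, limma, adjusted p = 0.0229), and it was not called at B over 0. Without insulin glargine replicate 3 it was 0.38 (adjusted p = 0.0573).

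Over all pairs, 2 of 7 members, Tubb2a and Tuba8, were called between Albulin and insulin glargine, where 4.35% of all probe sets were called, and the same 2 between Insulin-Apo and insulin glargine, where 4.84% were. All 4 differences were negative, the values being lower than in insulin glargine livers. At an adjusted p of 0.05 the counts would be 4 of 7 for Albulin, where 8.94% of all probe sets passed, and 5 of 7 for Insulin-Apo, where 10.8% did. All Albulin arrays were below all insulin glargine arrays for 5 of 7 members, where this held for 10.7% of all probe sets, and all Insulin-Apo arrays for 4 of 7, where it held for 12.8%. None of the 7 was called between Albulin and Insulin-Apo in limma, where 0.639% of all probe sets were, and 0 of 7 had an unadjusted p under 0.05, where 13.5% did. Those 7 differences lay between -0.16 for Tubb5 and 0.06 for Tuba4a. A test of any difference among the 4 treatments (limma F test) passed for 4 of 7, Tubb2a (adjusted p = 0.000184), Tuba8 (adjusted p = 0.000357), Tubb6 (adjusted p = 0.00360) and Tuba1a (adjusted p = 0.0278), where 13.3% of all probe sets passed. Tuba4a had an adjusted p of 0.0542 in that test.

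**Figure D2:**
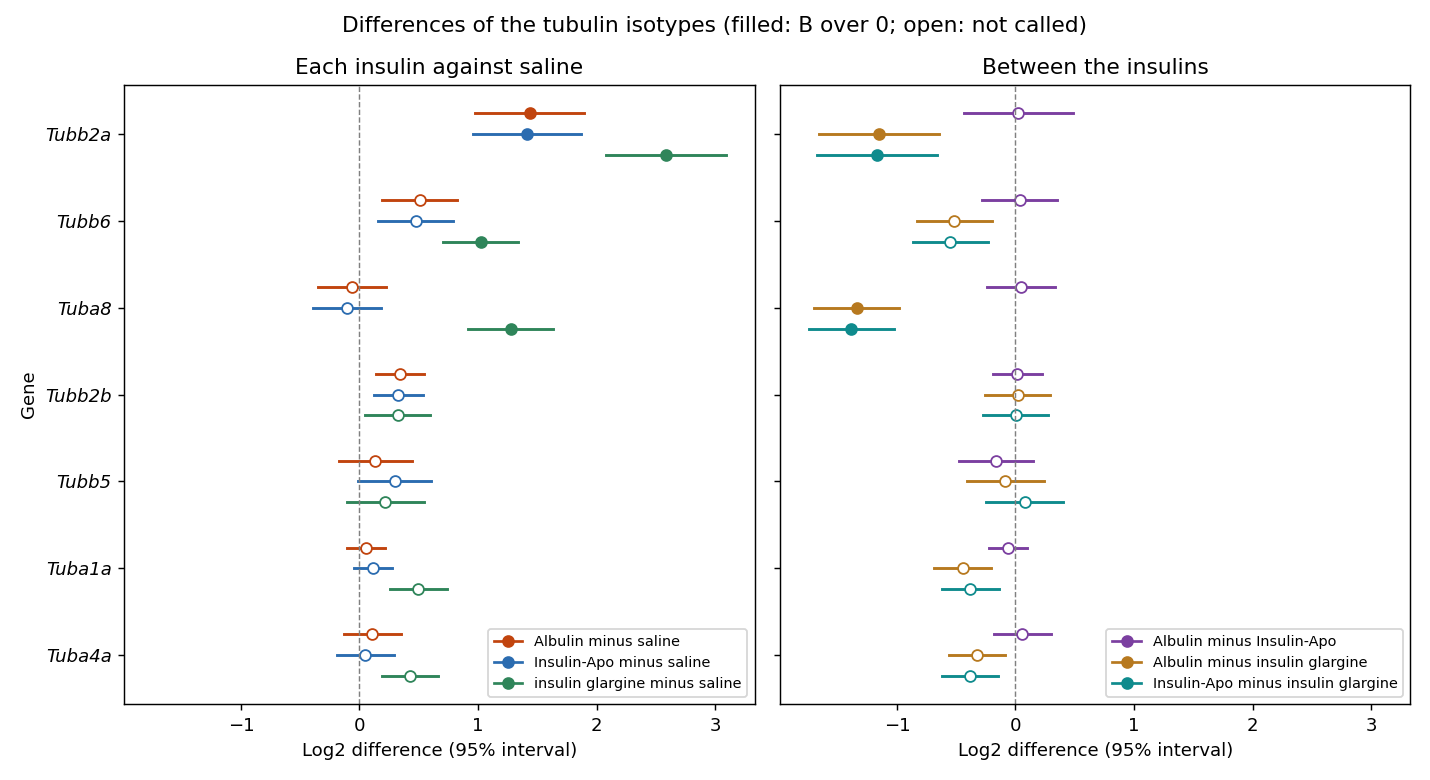
Log2 differences of the 7 isotypes, each insulin minus saline on the left and between the insulins on the right, with 95% intervals from limma and filled points where B was over 0. Tubb2a is filled for each insulin against saline at 1.44, 1.41 and 2.58, Tuba8 at 1.28 for insulin glargine alone, and all intervals of Albulin minus Insulin-Apo include 0.

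For Tubb4b, Tuba1b and Tuba1c the values are those of 7 probe sets that carry several symbols, and no value of these belongs to 1 gene. Tubb4b, a widely made beta-tubulin, stands on 2 of them with Zfp646, a zinc finger gene. Tuba1b and Tuba1c, both widely made alpha-tubulins, stand on 3 with Tuba1a and on 1 without it. The seventh, 10399419, carries Tubb2a, Tubb2b and the pseudogene Tubb2a-ps2.

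Probe set 10399419 had values of 7.09, 7.21 and 7.46 in Albulin livers, 7.29, 7.58 and 7.03 in Insulin-Apo livers, and 7.89, 7.80 and 7.94 in insulin glargine livers, against 6.77, 6.82 and 6.84 in saline livers. As for Tubb2a, all 9 insulin arrays were above the saline arrays and the insulin glargine arrays were highest. It was 1.07 ± 0.12 higher after insulin glargine than after saline (SE, limma, adjusted p = 0.000254), a call made under all 22 alternatives, and 1.04 higher without insulin glargine replicate 3. The differences after Albulin, 0.44 (adjusted p = 0.0830), and after Insulin-Apo, 0.49 (adjusted p = 0.0620), were not called.

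The 4 probe sets of Tuba1b and Tuba1c were 0.54 to 0.90 higher after insulin glargine than after saline, and 3 of the 4 were called. For probe set 10587780, which carries all 3 Tuba1 symbols, the values were 12.39, 12.28 and 12.57 in Albulin livers, 12.15, 12.55 and 12.28 in Insulin-Apo livers, and 12.44, 12.72 and 13.21 in insulin glargine livers, against 12.04, 11.94 and 12.03 in saline livers. Its difference after insulin glargine was 0.78 (limma, adjusted p = 0.00799), and replicate 3 of insulin glargine was the highest array. The 3 calls were lost in 5 to 12 of 22 alternatives, each of them when insulin glargine replicate 2 or any of the saline replicates was left out, with adjusted p of at most 0.0415. Without insulin glargine replicate 3 the 4 differences were 0.44 to 0.68, and of the 3 calls only that of probe set 10426650 was made. The difference after Albulin was 0.29 to 0.41 and that after Insulin-Apo 0.18 to 0.32 on the 4 probe sets, none called.

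Both probe sets of Tubb4b with Zfp646 were higher after insulin glargine than after saline, by 0.77 (limma, adjusted p = 0.0237) and 0.76 (adjusted p = 0.0153), and neither was called at B over 0. Without insulin glargine replicate 3 they were 0.56 (adjusted p = 0.0608) and 0.54 (adjusted p = 0.0288). The differences after Albulin were 0.34 and 0.35, and those after Insulin-Apo were 0.57 and 0.46.

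**Figure D3:**
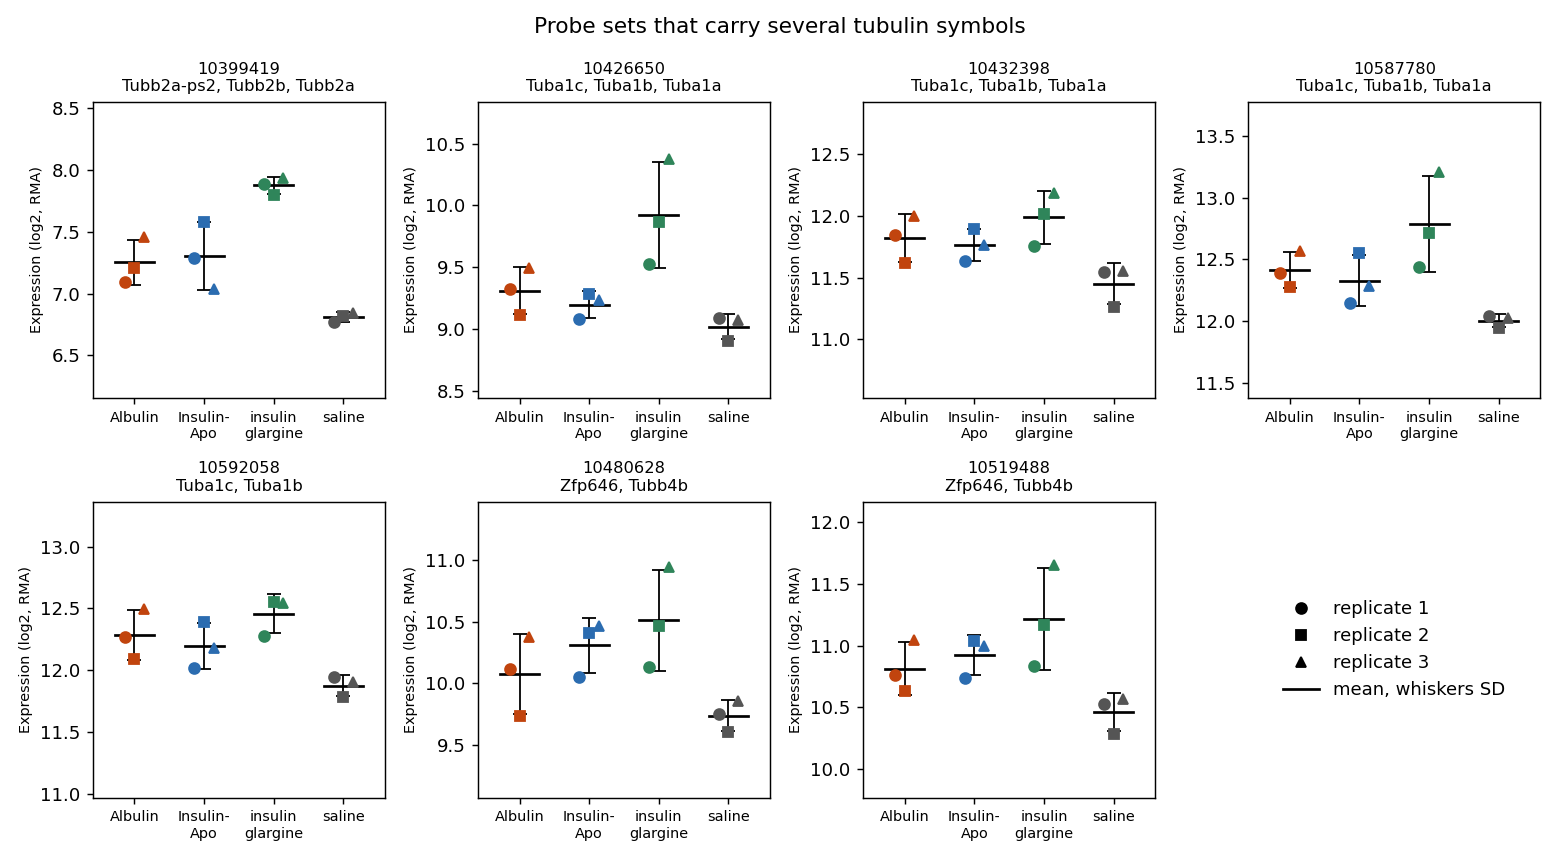
Expression (log2, RMA) of the 7 probe sets that carry several symbols with a tubulin among them, with a point per array, the mean as a bar and whiskers of 1 SD (n = 3 arrays). In every panel the mean is highest after insulin glargine and lowest after saline, by 1.07 for probe set 10399419 and by 0.54 to 0.90 for those of Tuba1b and Tuba1c.

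Other genes of the microtubule system were counted in 8 lists, of which 1 held genes of actin and intermediate filaments, with 128 of 133 genes measured by a probe set of their own. After Albulin, 3 were called higher than after saline and 2 lower, 3.91% of the list genes. After Insulin-Apo, 1 was higher and 1 lower, 1.56%, and after insulin glargine 4 were higher and 3 lower, 5.47%. These shares are near those of all probe sets in the same comparisons, 2.41%, 2.14% and 4.84%. None of the 8 other tubulin genes and none of the 10 measured genes of cell division was called in limma in any of the 6 comparisons. At an unadjusted p under 0.05, 0 to 2 of the 8 other tubulins and 0 of the 10 division genes passed in a comparison. Of all probe sets, 18.1% passed that threshold for Albulin, 17.4% for Insulin-Apo and 22.5% for insulin glargine against saline, 20.9% for Albulin and 23.5% for Insulin-Apo against insulin glargine, and 13.5% between Albulin and Insulin-Apo.

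Apart from Tmsb4x, in the actin list, the genes of these 8 lists with calls that stood under all alternatives were enzymes that mark tubulin. Their list had 17 measured genes. Against saline, 1 was called higher and 2 lower after insulin glargine, where 4.84% of all probe sets were called. After Albulin 2 were called lower, where 2.41% were, and after Insulin-Apo 1 lower, where 2.14% were. Against insulin glargine, 1 was called lower for Albulin, where 4.35% were, and 1 higher and 1 lower for Insulin-Apo, where 4.84% were. Ttll4, which starts glutamate chains on tubulin, had values of 9.79, 9.86 and 10.22 in insulin glargine livers, against 9.29, 8.89 and 9.10 in saline livers, and was higher by 0.87 ± 0.12 (SE, limma, adjusted p = 0.000820). Ttll1, of the complex that lengthens those chains, had values of 8.27, 8.09 and 7.58 in insulin glargine livers, against 8.90, 8.89 and 8.85 in saline livers, and fell by 0.90 ± 0.13 (SE, limma, adjusted p = 0.00103). Both calls were made in all 22 alternatives. Without insulin glargine replicate 3, the difference was 0.74 for Ttll4 and -0.70 for Ttll1. Ttll1 was also called lower after Albulin, at -0.35, and after Insulin-Apo, at -0.33, but those calls were lost in 6 and 9 of 20 alternatives. Atat1, which acetylates alpha-tubulin, was 0.98 ± 0.15 higher after Insulin-Apo than after insulin glargine (SE, limma, adjusted p = 0.00152), also in all 22.

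The remaining calls outside the actin list were lost in some alternatives. After insulin glargine, Kif5b, a kinesin heavy chain, was 0.64 higher than after saline (adjusted p = 0.00428), Dync1li1, a dynein chain, was 0.61 higher, and Tubgcp5, of the complex that starts microtubules, was 0.59 higher. Atat1 fell by 0.82 (adjusted p = 0.00471). Dynll2, a dynein light chain, had a difference of -0.72 between Albulin and insulin glargine (adjusted p = 0.00497). Ttll4 was also called lower than in insulin glargine livers, at -0.64 in Albulin livers (limma, adjusted p = 0.00551) and -0.64 in Insulin-Apo livers (adjusted p = 0.00536). After Albulin, Mid1, a ubiquitin ligase on microtubules, was 1.12 higher and Map7d1, a microtubule-binding protein, 0.51 higher, while Ttll5, another glutamate ligase, had a difference of -0.46. After Insulin-Apo, Tbcb, which helps to fold alpha-tubulin, was 0.41 higher. Each of these calls was lost in 3 to 8 of the 20 or 22 alternatives, among them the removal of single arrays of the 2 groups compared. With only the 2 groups compared, Kif5b, Dync1li1, Tbcb and both calls of Ttll4 were lost, and in the fit of all 12 arrays Mid1 and Ttll5. The replicate block lost Atat1 and Ttll5, centred arrays Dync1li1, repeated quantile normalization Tbcb, and array quality weights Ttll4 for Albulin. Map7d1 was also lost without Insulin-Apo replicate 3.

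**Figure D4:**
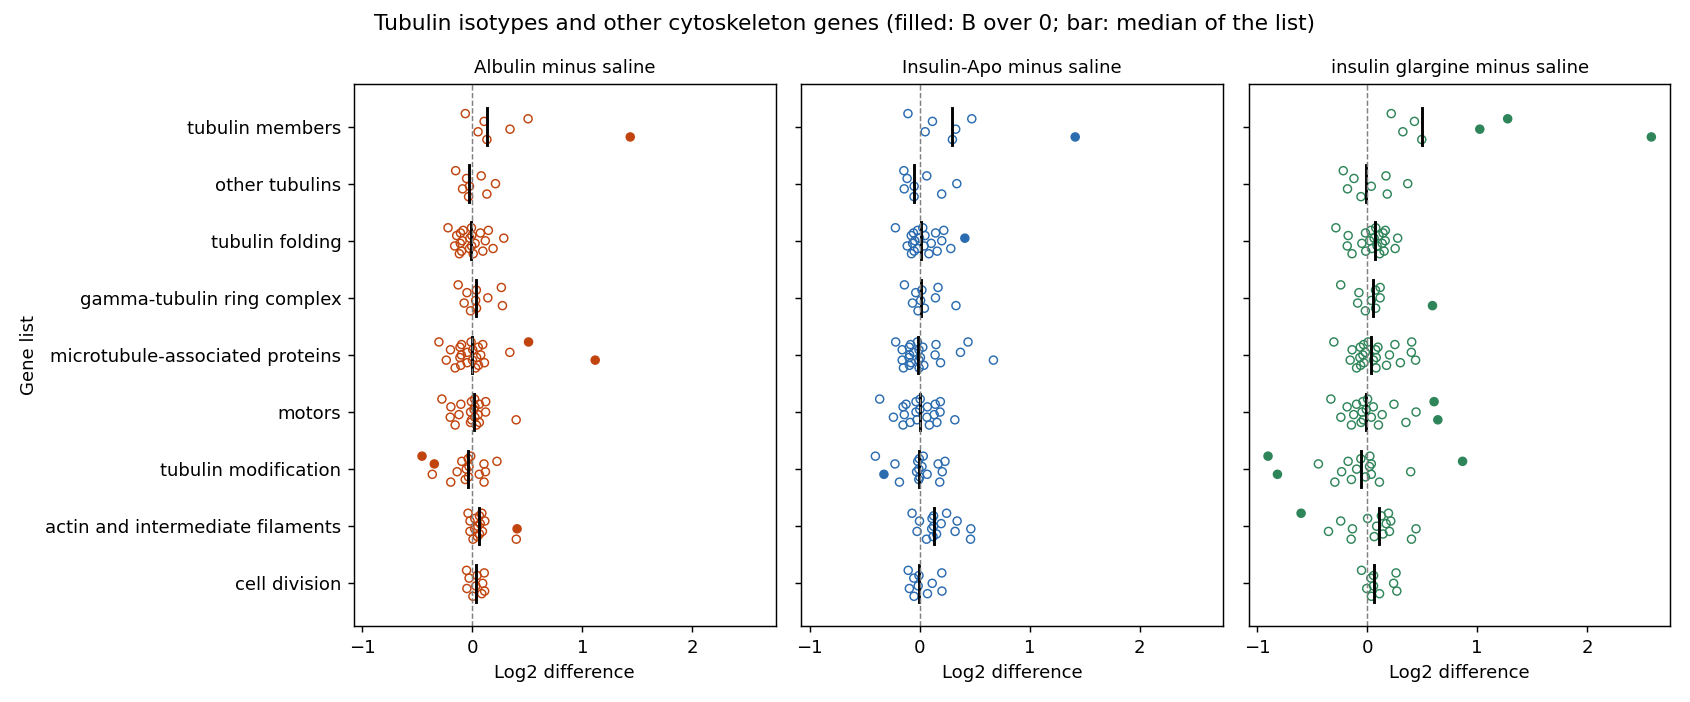
Log2 difference of each measured gene from saline, in rows for the tubulin isotypes and the 8 other lists and in a panel per insulin, with filled points where B was over 0 and a bar at the median of each list. The isotypes have medians of 0.13, 0.30 and 0.50 after Albulin, Insulin-Apo and insulin glargine, while the other lists have medians within 0.13 of 0.

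Markers of other liver cells moved in part with the treatments. After Albulin, 3 of 6 neutrophil markers were called higher than after saline, Cxcr2, S100a8 and S100a9, and after Insulin-Apo 1 of 8 Kupffer cell markers was, Marco. The call of S100a9 was made in all 20 alternatives, those of Cxcr2 and S100a8 were lost in 5, without Albulin replicate 1 or saline replicate 1 among them, and that of Marco in 10. After insulin glargine, where most isotypes were highest, 0 of 58 markers in 10 lists were called against saline in limma, and 10 of 58 had an unadjusted p under 0.05, where 22.5% of all probe sets did. The log2 summed level of the neutrophil markers was 10.17 to 10.36 in Albulin livers, 9.97 to 10.34 in Insulin-Apo livers and 9.39 to 9.60 in insulin glargine livers, against 9.55 to 9.76 in saline livers. The Albulin and Insulin-Apo sums were above those of the other groups, and the insulin glargine and saline sums overlapped. For the Kupffer cell markers the sums overlapped between all groups, at 13.69 to 13.93 in Albulin livers, 13.35 to 14.03 in Insulin-Apo livers and 12.99 to 13.77 in insulin glargine livers, against 13.40 to 13.78 in saline livers. For the 4 B cell markers they were 9.46 to 9.83 in Albulin livers, 9.24 to 9.35 in Insulin-Apo livers and 9.05 to 9.10 in insulin glargine livers, against 9.21 to 9.32 in saline livers. Between Albulin and insulin glargine 8 of the 58, 13.8%, were called, all higher after Albulin, where 4.35% of all probe sets were called and 2.35% were called higher. Between Insulin-Apo and insulin glargine 7 were called higher after Insulin-Apo and 1, Krt19, lower, together 13.8%, where 4.84% of all probe sets were called. Those made under all 22 alternatives were Cd79b, Kdr, Cxcr2 and S100a9 for Albulin and Marco and Csf3r for Insulin-Apo. No marker was listed at 0, and the part of these cells in the isotype values was not tested.

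Over the 12 arrays, the probe sets most like Tubb2a were those of Bysl (Pearson r = 0.967), Nrf1 (0.959), Dnajc5 (0.957), Tgm2 (0.954) and Rbm39 (0.949), out of 20504 compared. The most opposite were those of Phyhd1 (-0.977), Hebp1 (-0.975), Pbld1 (-0.974), Fam13a (-0.969) and Stard5 (-0.967). Tubb6 was the isotype nearest to Tubb2a (0.934, rank 11), followed by Tuba1a (0.799, rank 370), Tuba4a (0.763), Tubb2b (0.655), Tuba8 (0.640) and Tubb5 (0.493, rank 2659). The arrays fall into 4 treatments, so these correlations mostly express the differences between treatments, and they are given as a description.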

How the data were processed

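Liver RNA of 12 samples was hybridized by the authors to Mouse Gene 1.0 ST arrays of Affymetrix. Background correction and normalization were done by the authors with RMA, the Robust Multichip Average, and they deposited a log2 value for each of 28213 probe sets. For the RMA version, the annotation build and whether the 12 arrays were normalized as 1 set, the answer is not given in the sources used here. Raw intensities were not used here, and the number of arrays, 3 per group, limits the precision.

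Groups came from the sample labels, and gene symbols from the array annotation. Of the probe sets, 21640 carry 1 symbol, 1321 carry several and 5252 carry none, and 21620 of the 21640 matched a RefSeq gene. A probe set was kept if at least 2 arrays of some group exceeded 5, which all 7 members passed. limma 3.58.1 in R 4.3.3 was run on 25989 probe sets of the 9 Albulin, Insulin-Apo and saline arrays for the comparisons among them, as in the methods, and on 26027 probe sets of all 12 arrays for those with insulin glargine and for the F test. A call needed B over 0 with a prior proportion of 0.01, and p-values were adjusted with the Benjamini-Hochberg method over all probe sets. limma was tested on simulated data. Python 3.11.15 with matplotlib 3.10.9 drew the figures.

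The members, gene lists and tests were chosen with earlier results of these data known. The text names all members, the list genes called in any comparison (at most 6 a list), and the 5 probe sets most like and most unlike Tubb2a. Alternatives were other filters, an adjusted p in place of B, centred arrays, quantile normalization run once more, a block for the replicate number, array quality weights, an intensity trend, other sets of arrays, the mean of a gene's probe sets, and each array left out in turn. Those for probe sets with several symbols were chosen after seeing the data.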

Additional observations from a re-analysis of the deposited data

How the results depend on the processing

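Of the member differences under all alternatives, 848 stayed on their side of the threshold, 16 passed it only under the alternative and 18 no longer passed it. No difference that was called changed its sign. Differences that were not called could change sign, as that of Tuba8 between Albulin and saline did, at -0.15 to 0.06 over the alternatives. The number of members called for Albulin against saline was 1, and 2 with only the 2 groups compared. For insulin glargine against saline it was 3, and 5 at an adjusted p under 0.05. For Albulin against insulin glargine it was 2, and 4 at an adjusted p under 0.05, but 1 after repeated quantile normalization, with the replicate block, with array quality weights and with only the 2 groups compared. For Insulin-Apo against insulin glargine it was 2, and 5 at an adjusted p under 0.05 and 1 with only the 2 groups compared. With single arrays left out, the counts ranged from 1 to 2 for Albulin and for Insulin-Apo against saline, from 3 to 4 for insulin glargine against saline, and from 1 to 3 for Albulin and for Insulin-Apo against insulin glargine. The count for Albulin against Insulin-Apo was 0 in all 20 alternatives, and the F test passed 3 to 5 members.

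Over all probe sets, the calls moved between 411 and 1219 (626 as reported) for Albulin against saline, 324 and 969 (556) for Insulin-Apo against saline, 783 and 2848 (1259) for insulin glargine against saline, 36 and 180 (166) for Albulin against Insulin-Apo, 701 and 2327 (1133) for Albulin against insulin glargine, and 645 and 2823 (1259) for Insulin-Apo against insulin glargine. The causes were not tested. The deviations of same-numbered arrays from their group means correlated over 0.1 in 2 of 18 pairs (range -0.257 to 0.144). Arrays with different numbers were not compared in this way, so whether the numbers pair the samples is not settled. Apart from the call of Tubb2a between Albulin and insulin glargine (limma, adjusted p = 0.0123 with the replicate block), the block changed no call of a member. With 3 arrays per group, differences within the intervals given are not excluded.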

Other observations

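Genes of the actin cytoskeleton were also called in single comparisons. Tmsb4x, which encodes thymosin beta 4, a protein that binds actin monomers, had values of 11.05, 11.12 and 10.91 in insulin glargine livers, against 11.49, 11.67 and 11.73 in saline livers, and fell by 0.60 (limma, adjusted p = 0.00330), a call lost without insulin glargine replicate 3, saline replicate 2 or saline replicate 3 (adjusted p of at most 0.0178 over the alternatives). It was higher than in insulin glargine livers by 0.69 in Albulin livers and by 1.07 in Insulin-Apo livers, and both of these calls were made under all 22 alternatives. Myh9, a non-muscle myosin heavy chain, was 0.41 higher after Albulin than after saline (adjusted p = 0.0150), a call that was lost in 7 of 20 alternatives. Actn1, an actin cross-linker, was 0.42 higher after Albulin than after insulin glargine (adjusted p = 0.00690), lost in 7 of 22.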
